A study of Mus musculus with 18 samples.

Results

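This account covers 42 genes of the cytosolic and mitochondrial heat shock chaperone system in mouse kidney, chosen by their symbols from the 19545 genes of the deposited expression table. All 42 symbols were found. By family they comprised 11 HSP70 and HSP110 proteins, 3 HSP90 proteins, HSP60 with its partner HSP10, 6 small heat shock proteins and 6 J-proteins. A further 4 were HSP70 co-chaperones, 7 were HSP90 co-chaperones, 2 were heat shock factors, and 1, Serpinh1, was the collagen chaperone. By compartment, 36 were assigned to the cytosol and nucleus, 4 to the mitochondrion (Hspa9, Trap1, Hspd1 and Hspe1) and 2 to the endoplasmic reticulum (Serpinh1 and Hspa13), so the label does not describe the last 2.

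RNA came from kidneys of ICR mice aged 10 weeks, with 3 libraries in each of 6 groups. The mice of 4 groups shared a high fat diet with streptozotocin (STZ), a toxin of the insulin-producing beta cells. These were HS_AOS, which also received AOS at 10 mg/kg, HS_AOS_FMT and HS_control_FMT, which received an FMT (faecal microbiota transplantation) labelled AOS at 10 mg/kg or control, and HS, which received nothing more. The AOS group received AOS at 10 mg/kg without diet or STZ, and control mice have no treatment listed. The labels do not spell out AOS, do not name the transplant donors and include no HS group given a mock transfer. Nor do they say whether the 3 libraries of a group are 3 animals, and if not, the spread behind each p-value may be technical.

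Heat shock chaperones bind unfolded or partly folded proteins and help them to fold, to be moved or to be degraded. HSP70 works in cycles set by J-proteins, which bring clients, and by nucleotide exchange factors such as the HSP110 and BAG proteins, while HSP90 takes clients such as kinases and steroid receptors from HSP70 with the help of its own co-chaperones. Under heat, oxidants or other stress to proteins, the transcription factor HSF1 binds heat shock elements, repeats of a short unit in alternating orientation, and raises a subset of these genes. In the kidney the tubules of the medulla are known for high small heat shock protein levels, and the inducible HSP70 is known to rise after ischaemia.

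The sequence before the start sites of members is shown first, as a description. The members were chosen by name as heat shock genes, and whether the elements relate to their changes was not tested. RefSeq promoters on GRCm38.p6 were matched for 34 of the 42 members, and the 250 bases before each start were searched on both strands for a pair of facing units (GAANNTTC or TTCNNGAA, called 2 units). At least 1 promoter with 2 units was found for 12 of the 34 members (35.3%), against 14.5% of the 27025 genes in the table and 12.8% of its 32851 promoters. A run of 3 alternating units, which contains the pair, was found for 3 of the 34 members (8.82%: Hspd1, Hspe1 and Dnajb6), against 0.514% of genes and 0.466% of promoters. Members can have up to 3 starts, and among those with 1 start 6 of 25 held 2 units (24%), against 13% of genes with 1 start. The first 3 entries, Hspb1, Hspa1b and Hspa1a, had the largest log2 changes of all members in HS_control_FMT vs control, and the windows after them show how the element varies. Capitals mark the matched element, and all sequences run 5′ to 3′ on the gene's strand.
Hspb1 (chr5:135887669-135887918, plus strand): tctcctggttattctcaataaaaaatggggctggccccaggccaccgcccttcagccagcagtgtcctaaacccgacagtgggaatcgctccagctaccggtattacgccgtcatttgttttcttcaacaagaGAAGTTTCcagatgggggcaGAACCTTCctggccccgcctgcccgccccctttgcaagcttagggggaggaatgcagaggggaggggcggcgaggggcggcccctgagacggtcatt
Hspa1b (chr17:34959239-34959488, minus strand): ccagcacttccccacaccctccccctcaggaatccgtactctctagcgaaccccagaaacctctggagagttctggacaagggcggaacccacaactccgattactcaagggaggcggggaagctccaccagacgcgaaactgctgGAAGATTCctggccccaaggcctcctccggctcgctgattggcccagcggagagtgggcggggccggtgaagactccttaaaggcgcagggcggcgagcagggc
Hspa1a, window (chr17:34972242-34972271, minus strand): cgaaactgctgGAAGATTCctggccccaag
Hsph1, window (chr5:149636351-149636380, minus strand): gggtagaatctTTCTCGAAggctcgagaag
Hspe1, window (chr1:55088053-55088082, plus strand): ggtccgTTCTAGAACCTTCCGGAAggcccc
Dnaja1, window (chr4:40722333-40722362, plus strand): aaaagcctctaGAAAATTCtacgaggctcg
Dnajb4, window (chr3:152193846-152193875, minus strand): gttcgttcgttcgctgTTCTAGAAagtaca
Dnajb6, window (chr5:29735843-29735872, plus strand): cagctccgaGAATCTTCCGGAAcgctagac
Fkbp4, window (chr6:128438789-128438818, minus strand): ccgcttctctaGAAAGTTCtccgctcccgc
Hspb1 carried 2 elements, 117 to 110 and 97 to 90 bases before its start. The promoters of Hspa1a and Hspa1b differed at 3 of 250 bases and each held the element 104 to 97 bases before the start. Hspe1 and Hspd1 are neighbours on opposite strands, and the run of 18 capital letters in the Hspe1 window is the same DNA as the element before the second start of Hspd1. The counts above include this DNA for both members, and include the near-identical promoters of Hspa1a and Hspa1b separately.

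**Figure D1:**
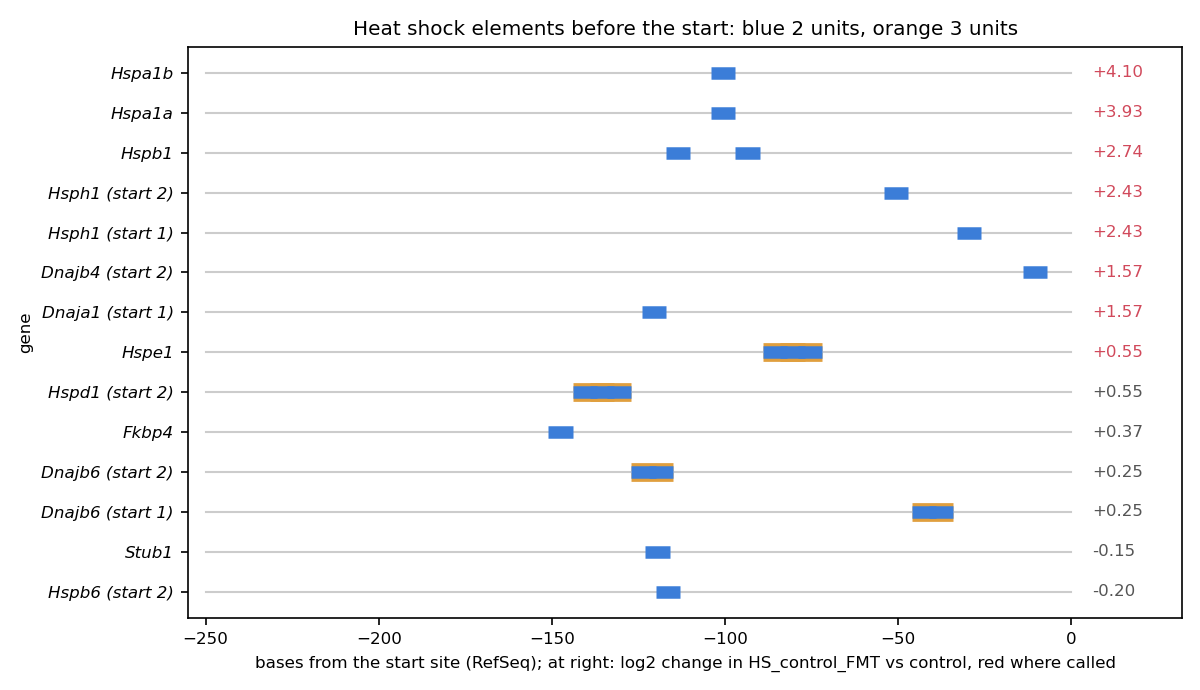
Position of 2-unit (blue) and 3-unit (orange) heat shock elements in the 250 bases before the start, for every start of a member that held one, in bases from the start. The number at the right is the log2 change in HS_control_FMT vs control, red where it passed the test, and the rows run from 4.10 for Hspa1b at the top to -0.20 for Hspb6 at the bottom.

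Libraries differed within groups, and this touched the chaperones. Read totals are unknown, because the deposited values are FPKM, fragments scaled to transcript length and library size, with 15773 to 17270 genes above 0 in a library. Control 3 stood apart from all other libraries (Pearson r 0.947 to 0.965 over 12385 genes). Adrenal transcripts, 14 markers in all, summed to 938 FPKM in control 3, 590 in HS 3 and 420 in HS_AOS_FMT 2, and to between 1.23 and 71.6 in the others. HS 1 was the lowest library of its group for 32 of 41 members, where 40.8% of all genes had it lowest. HS_control_FMT 3 was the lowest of its group for 31 of 41, but most genes (63.6%) had it lowest as well. HS_AOS_FMT 3 was the highest for 29 of 41 (21.1% of all genes) and control 2 the highest for 25 of 41 (16.2%).

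The most abundant member, Hspa8, the constitutive cytosolic HSP70, reached 3139 FPKM in HS_control_FMT 2. FPKM is per length, so levels of different genes are set side by side here. They are less certain for members that share sequence with other genes, Hspa8 among them, because the counting program is unknown. A mean of at least 100 FPKM over all libraries was reached by 11 members, and 4 members were under 5 FPKM on average. Hspb7, a small heat shock protein of muscle, reached 1.02 FPKM in control 3 and at most 0.74 elsewhere, so it did not reach 1 FPKM in 3 libraries and was not tested. The other 41 members were tested with limma on log2(FPKM + 1), a scale that understates changes of low genes. Called means an adjusted p under 0.05 after Benjamini-Hochberg adjustment over all 12385 genes tested. Over the 6 groups 21 of 41 members were called by the F test, where the background is 8.21% of all genes. The highest library of a gene was an HS_control_FMT library for 26 of the 42 members. The share of all genes is not given for this count, so it has no background here.

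**Figure D2:**
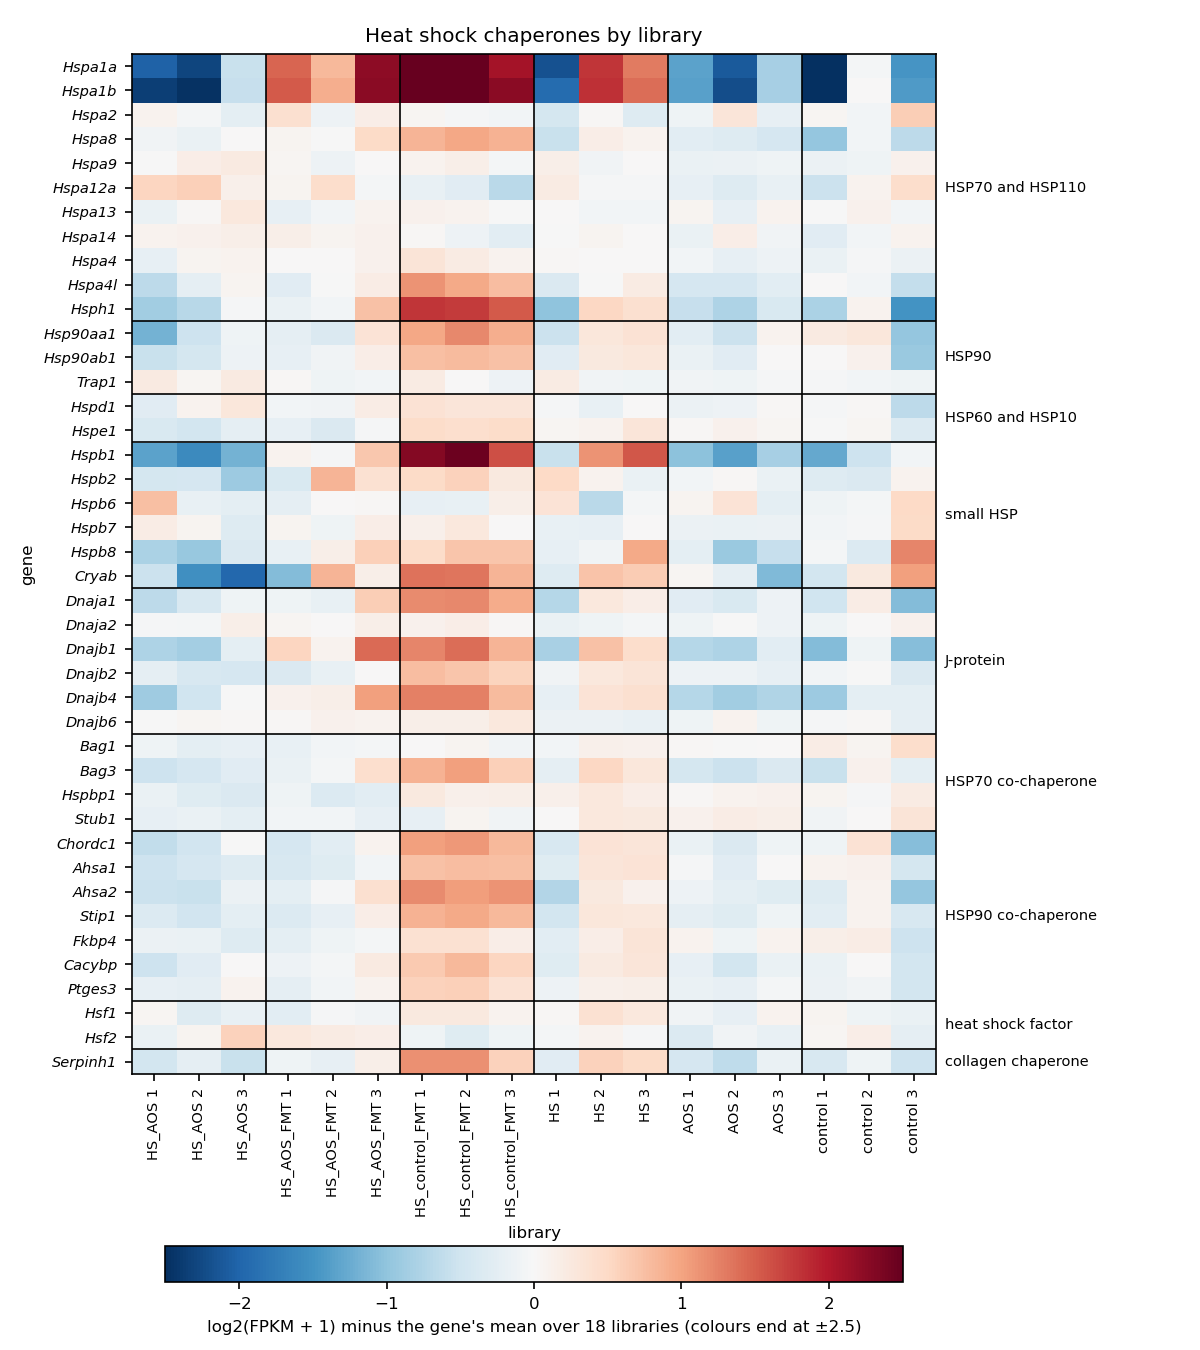
Each row is a member and each column a library, with colour giving log2(FPKM + 1) minus that gene's mean over 18 libraries, and families separated by lines. Most members of the cytosolic families are red in the 3 HS_control_FMT columns, HS 1 is bluer than HS 2 and HS 3, and Hspa9, Hspa13, Hspa14 and Trap1 vary little.

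Of 41 members tested, 20 were higher and 0 lower in HS_control_FMT than in control kidneys, where 1.47% of all genes were higher and 1.8% lower. The 2 groups differ in diet, STZ and transplant at once, and the parts of these cannot be told apart in this comparison. The median log2 change was 0.74 over the members and -0.07 over all genes. In 26 members all 3 HS_control_FMT libraries lay above all 3 control libraries, against 5.73% of all genes. By family, the called members were 6 of 7 HSP90 co-chaperones, 4 of 6 J-proteins, 5 of 11 HSP70 and HSP110 proteins, 1 of 3 HSP90 proteins, 1 of 4 HSP70 co-chaperones, Hspb1, Hspe1 and Serpinh1. The other 21 members were not called, among them both heat shock factors and 3 of the 4 mitochondrial members. Of the 41, 34 had a log2 change above 0. The share of all genes above 0 is not given, so those 34 have no background here. The count of called members was 0 when these 2 groups were fitted alone. In bulk tissue, more cells of a type and more RNA per cell cannot be told apart, nor can fewer cells and less RNA.

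Against HS, the group that shares diet and STZ, the same transplant group had 4 members higher and 0 lower (background 0.46% higher, 0.291% lower). All 3 libraries of HS_control_FMT lay above all 3 of HS in 25 members, against 6.53% of all genes, and 25 had an unadjusted p under 0.05 with a positive change, against 4.36%. The medians were 0.46 over the members and -0.08 over all genes on the log2 scale. Podocyte markers (6 genes, none at 0 throughout a group) summed to 45.5 to 67.2 FPKM in HS_control_FMT and 67.3 to 75.2 FPKM in HS. Adrenal markers (14 genes) summed to 1.23 to 1.53 FPKM in HS_control_FMT and 2.05 to 590 FPKM in HS, also without overlap. The part of these lists in the result was not tested. These 4 calls rested on most of the libraries. The count was 0 without any 1 of HS 1, HS 2, HS_AOS 2, HS_AOS_FMT 2, any HS_control_FMT library or any AOS library, 1 without HS 3, HS_AOS 1 or HS_AOS 3, and 2 without HS_AOS_FMT 1 or control 1. It was 7 without control 2 and 12 without control 3.

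Among the HSP70 proteins, the stress-inducible pair Hspa1a (chromosome 17, 34969359 to 34972156) and Hspa1b (chromosome 17, 34956429 to 34959238, both GRCm38.p6), chosen after their values were seen, varied most. Their transcripts share 58.8% of the 50-base windows of Hspa1a and 62.3% of those of Hspa1b, so the authors' counting could split their reads, and the pair is best read as a sum. The summed level was 12.6, 10.95 and 44.75 FPKM in HS_AOS, 195.27, 125.17 and 328.09 FPKM in HS_AOS_FMT, and 500.39, 521.85 and 317.75 FPKM in HS_control_FMT. In HS it was 15.41, 242.59 and 177.27 FPKM, in AOS 25.21, 13.3 and 37.02 FPKM, and in control 8.47, 66.7 and 23.72 FPKM. All transplant libraries lay above every AOS, HS_AOS and control library, and the HS group held 1 low and 2 high libraries. Hspa1a made up 22.3% to 31.3% of the sum in every library. Hspa1b averaged 322 ± 77.8 FPKM in HS_control_FMT and 23.9 ± 21.9 FPKM in control (SD, n = 3 each; limma log2 change 4.10, SE 0.89, adjusted p = 0.0228), and Hspa1a gave 3.93 ± 0.88 (log2 change ± SE, limma adjusted p = 0.026). In no other comparison were they called. Against HS, the value of Hspa1b was 2.25 ± 0.89 in HS_control_FMT and -2.24 ± 0.89 in HS_AOS (log2 change ± SE; limma adjusted p = 0.254 and 0.178).

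Hspa8 (chromosome 9, 40801276 to 40805202) had 2892, 3139 and 2898 FPKM in HS_control_FMT, 1090.3, 1799 and 1704 in HS and 821, 1519.5 and 1011 in control. The 3 HS_control_FMT libraries lay above all the others, in HS and in control. The log2 change was 1.46 ± 0.21 (SE) against control (limma adjusted p = 0.00179) and 0.99 ± 0.21 against HS (adjusted p = 0.0449). Of the 50-base windows of Hspa8, 51.4% occur in other genes (45.3% in Gm15459), so its reads may have been divided. The HSP110 proteins exchange the nucleotide of HSP70. One of them, Hspa4l, had 23.9, 21.1 and 18.4 FPKM in HS_control_FMT, 7.9, 10.2 and 12.2 in HS and 10.4, 9.88 and 6.59 in control. Every HS_control_FMT library was above every library of both other groups, and Hspa4l was called against control (limma log2 change 1.17, SE 0.20, adjusted p = 0.0058) and against HS (log2 change 1.01, SE 0.20, adjusted p = 0.0351). Hsph1, the inducible HSP110 that carries an element 33 to 26 bases before its first listed start, chosen after its values were seen, had 203, 197 and 171 FPKM in HS_control_FMT, 28.4, 83.3 and 76.9 in HS and 33, 61.8 and 19.96 in control. All 3 HS_control_FMT libraries lay above the rest, and it was called against control (limma log2 change 2.43, SE 0.41, adjusted p = 0.00677) and not against HS (log2 change 1.72, adjusted p = 0.073). The third HSP110, Hspa4, was not called against control (0.32 ± 0.09, log2 ± SE, adjusted p = 0.0533). The remaining HSP70 proteins were not called in any comparison. Hspa12a, a distant relative, ranged from 2.64 to 7.74 FPKM, and Hspa2, best known from testis, from 1.73 to 4.69. Hspa13 ranged from 8.37 to 11.95 FPKM and Hspa14, a ribosome-bound form, from 12.93 to 17.95.

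J-proteins recruit clients to HSP70 and start its ATP cycle. Dnajb2 (chromosome 1, 75236395 to 75245692), which carries ubiquitin-binding motifs and passes clients to the proteasome, had 15.2, 17.2 and 19.8 FPKM in HS_AOS_FMT and 34.3, 32.7 and 29.5 FPKM in HS_control_FMT. The groups did not overlap, and no HS, AOS, HS_AOS or control library reached the lowest HS_control_FMT value. Dnajb2 was higher in HS_control_FMT than in control (limma log2 change 0.82, SE 0.12, adjusted p = 0.00246) and lower in HS_AOS_FMT than in HS_control_FMT (log2 change -0.85, SE 0.12, adjusted p = 0.00341). Its lower level in HS_AOS_FMT against HS_control_FMT was called under all 28 alternatives. Dnaja1, the most abundant J-protein, had 291, 294 and 246 FPKM in HS_control_FMT and 89.8, 146 and 59.8 in control, with no overlap (limma log2 change 1.57, SE 0.30, adjusted p = 0.0128). Dnajb1, the main partner of inducible HSP70, and Dnajb4 were chosen after their values were seen. Dnajb1 had 55.9, 62.7 and 42.6 FPKM in HS_control_FMT and 10.5, 21.7 and 10.7 in control (log2 change 1.90, adjusted p = 0.019). Dnajb4 had 41.1, 41.3 and 29.8 FPKM in HS_control_FMT and 8.43, 14 and 13.9 in control (log2 change 1.57, adjusted p = 0.00699). Neither gene's groups overlapped. Dnaja2 and Dnajb6 stayed within 47.7 to 59.86 and 57.67 to 81.6 FPKM over all 18 libraries and were called in no comparison. Dnajb6 shares 35.8% of its windows with other genes. Among all members, Dnajb6 is one of the 3 with a 3-unit element, and its log2 change in HS_control_FMT vs control was 0.25.

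**Figure D3:**
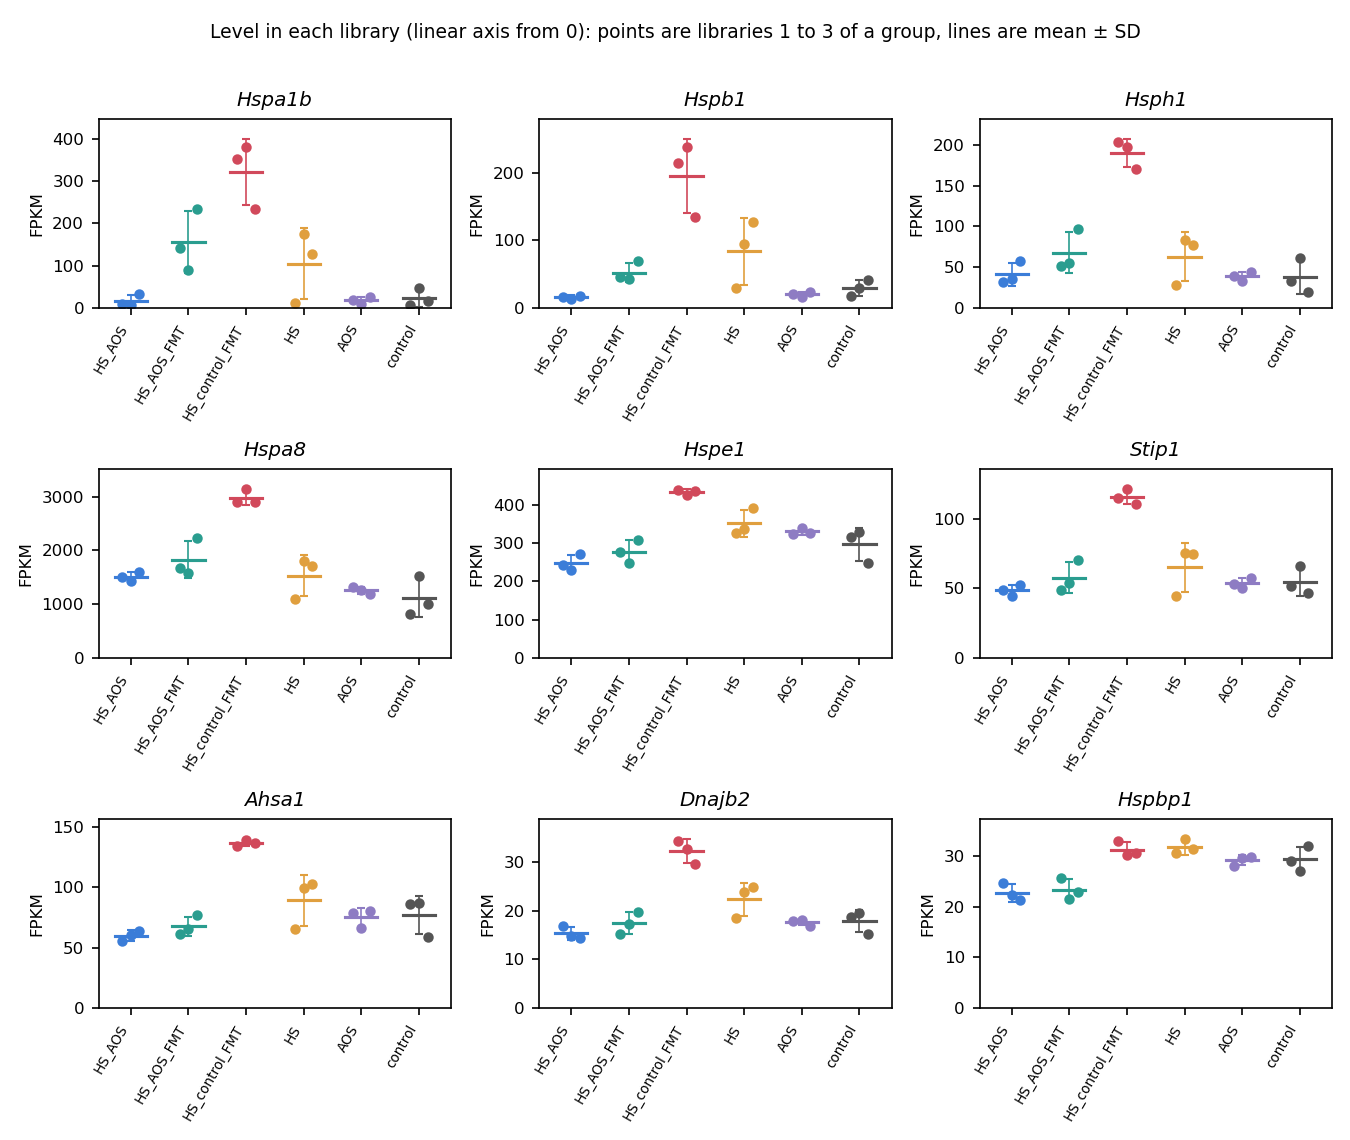
FPKM of 9 members in each library on linear axes from 0, with points for libraries 1 to 3 of a group and lines for the mean ± SD (n = 3). The highest library is an HS_control_FMT library in 8 panels, and in the Hspbp1 panel HS_AOS and HS_AOS_FMT lie below the other 4 groups.

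In HS_control_FMT vs control, the HSP90 co-chaperones had the largest share of calls among families with at least 2 members (6 of 7). Hsp90ab1, the constitutive HSP90, had 1185, 1222 and 1167 FPKM in HS_control_FMT, 582, 838 and 853 in HS and 710.0, 758 and 369 in control. Its HS_control_FMT libraries lay above all of HS and control, and it was called against control only (limma log2 change 1.03, SE 0.23, adjusted p = 0.0228; against HS log2 change 0.67, adjusted p = 0.18). Hsp90aa1, the inducible form, gave 1.18 ± 0.35 against control (log2 ± SE, adjusted p = 0.0785) and shares 58.5% of its windows with other genes. Stip1, which bridges HSP70 and HSP90, had 115, 121 and 111 FPKM in HS_control_FMT, 44.9, 75.7 and 74.9 in HS and 51.5, 66.3 and 46.8 in control. Again no HS or control library reached the transplant group, and it was called against control (log2 change 1.08, SE 0.18, adjusted p = 0.00565) and HS (log2 change 0.86, SE 0.18, adjusted p = 0.0449). Ahsa2, a relative of the HSP90 activator Ahsa1, had 34.9, 31.7 and 33.3 FPKM in HS_control_FMT, 8.49, 17.8 and 16.1 in HS and 11.7, 15.9 and 7.03 in control. Those groups did not overlap either, and both calls were made (log2 change 1.52, adjusted p = 0.00699 against control, log2 change 1.24, adjusted p = 0.0466 against HS). Of the exon bases of Ahsa2, 50.2% overlap Usp34 on the opposite strand, and strandedness is not given in the sources used here. Ahsa1, Chordc1, an HSP90-binding protein with zinc-binding domains, Cacybp and the p23 gene Ptges3 were higher against control, with log2 changes of 0.84, 1.24, 0.88 and 0.74 (limma adjusted p = 0.0143, 0.0313, 0.0129 and 0.00454). Fkbp4, the most abundant member of this family and an immunophilin of steroid receptor complexes, was at 149.9, 151 and 129 FPKM in HS_control_FMT and 128, 130.3 and 79.8 in control. Its groups overlapped and it was not called (log2 change 0.37, adjusted p = 0.239).

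Of the small heat shock proteins, which hold unfolded proteins without using ATP, Hspb1 (chromosome 5, 135887919 to 135889563) showed the widest range. Its level was 16.4, 13.7 and 18.3 FPKM in HS_AOS, 45.6, 42.1 and 68.8 in HS_AOS_FMT and 214, 239 and 134 in HS_control_FMT. In HS it was 28.8, 94.3 and 127 FPKM, in AOS 20.6, 16.2 and 23.8 and in control 17.1, 29.6 and 41. The HS_control_FMT libraries lay above all the others, HS_AOS lay below every HS library, and HS 1 lay among the control values. Against control, Hspb1 was higher in HS_control_FMT (limma log2 change 2.74, SE 0.44, adjusted p = 0.00454). A pseudogene copy, Hsp25-ps1, shares 51.6% of its windows. Cryab, the alpha-B crystallin gene, had the highest mean of this family over all 18 libraries (71.7 FPKM, against 66.1 for Hspb1). In HS_control_FMT and HS the mean of Hspb1 was higher. Cryab had 40.1, 19.7 and 14.4 FPKM in HS_AOS, 152, 149.8 and 107 in HS_control_FMT, 47, 97.2 and 91.5 in HS and 42.8, 70.2 and 121 in control. HS_AOS was below HS with no overlap, and no comparison called it (HS_AOS vs HS log2 change -1.68, adjusted p = 0.0911). Hspb8, the partner of Bag3, was at 3.4, 2.99 and 4.98 FPKM in HS_AOS and 6.36, 5.03 and 16.9 in control, and control 3 was the highest of all 18 libraries. Hspb2 and Hspb6 reached at most 3.68 and 14.76 FPKM and were not called in any comparison. Exons of Hspb2 and Cryab overlap on opposite strands over 30.2% and 17% of their bases.

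The HSP70 co-chaperones split. Bag3, a stress-inducible exchange factor of selective autophagy, had 40.04, 44.8 and 33 FPKM in HS_control_FMT and 14.2, 23.1 and 17.9 in control, and was higher without overlap (log2 change 1.07, SE 0.20, adjusted p = 0.00926). Bag1, the most abundant of the 4, was at 149.8, 137 and 140.0 FPKM in HS_AOS and 184, 171 and 219 in control. Its HS_AOS libraries lay below all control libraries, and it was lower there (log2 change -0.42, SE 0.09, adjusted p = 0.0267). Hspbp1 (chromosome 7, 4660515 to 4685188), an exchange factor that competes with Bag1 for HSP70, was at 24.7, 22.3 and 21.2 FPKM in HS_AOS, 25.7, 21.5 and 22.9 in HS_AOS_FMT and 32.9, 30.1 and 30.6 in HS_control_FMT. It was at 30.5, 33.3 and 31.3 FPKM in HS, 28, 29.6 and 29.8 in AOS and 29, 27.1 and 31.9 in control. Every HS_AOS and HS_AOS_FMT library lay below every library of the other 4 groups. Stub1, the ubiquitin ligase CHIP, chosen after its values were seen, was at 42.4, 43.5 and 41.4 FPKM in HS_AOS and 49.4, 58.9 and 58.4 in HS, without overlap, and was not called (log2 change -0.38, adjusted p = 0.0649). Antisense exons of Jmjd8 overlap 42.3% of its exon bases.

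Among mitochondrial members Hspe1, the lid of the HSP60 folding chamber, was the only one called in any comparison run. Hspe1 (chromosome 1, 55088148 to 55091317) had 243, 229.6 and 271 FPKM in HS_AOS, 275, 248 and 308 in HS_AOS_FMT and 438, 424 and 436 in HS_control_FMT, against 326, 336 and 392 in HS and 314, 327 and 248 in control. The 3 HS_control_FMT values were the highest of all libraries, and HS_AOS lay below HS. It was higher in HS_control_FMT than in control (log2 change 0.55, SE 0.11, adjusted p = 0.014). Its partner Hspd1, which shares the element printed above, gave 0.55 ± 0.16 in that comparison (log2 ± SE, limma adjusted p = 0.0786), and 44.8% of its windows occur in other genes. Hspa9, the mitochondrial HSP70, ranged from 287.63 to 376.4 FPKM and Trap1, the mitochondrial HSP90, from 150.09 to 192.73, with log2 changes of 0.11 and 0.10 in HS_control_FMT vs control. By compartment, 18 of 35 cytosolic and nuclear members tested, 1 of 4 mitochondrial and 1 of 2 reticulum members were higher in that comparison, with median log2 changes of 0.84, 0.33 and 0.68.

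Neither heat shock factor, the regulators of these genes, was called in any of the 10 comparisons. Hsf1 was at 17.2, 13.1 and 14.4 FPKM in HS_AOS, 19.8, 19.9 and 17.7 in HS_control_FMT, 17, 21.9 and 20.2 in HS and 17.5, 15.2 and 14.6 in control. HS_control_FMT lay just above control and HS 2 was the highest library (Hsf1 in HS_control_FMT vs control, log2 change 0.26, adjusted p = 0.238). Hsf2 was between 4.62 and 9.67 FPKM in all libraries. Serpinh1, which binds procollagen in the endoplasmic reticulum, had 77.8, 77.8 and 51.8 FPKM in HS_control_FMT, 28.4, 52 and 48.2 in HS and 25.9, 32.1 and 23.9 in control. HS_control_FMT lay above control throughout and overlapped HS, and Serpinh1 was higher against control (limma log2 change 1.30, SE 0.21, adjusted p = 0.00508).

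The count of 20 members higher in HS_control_FMT than in control was 14 without the 3 adrenal-rich libraries and 12 without HS_control_FMT 2. Germ cell markers (8 genes) summed to 21.6 to 32.8 FPKM in HS_control_FMT and 54.5 to 61.9 FPKM in control, without overlap, and 4 of the 5 tested were lower. Of those 8 markers, 4 were at 0 in all HS_control_FMT libraries and 0 were at 0 in all control libraries. The germ cell list includes Hspa1l, itself an HSP70 gene. Markers of the inner medulla and papilla (8 genes, none at 0 throughout a group) summed to 190 to 337 FPKM in HS_control_FMT and 141 to 221 FPKM in control, and fat markers (8 genes) to 310 to 1280 FPKM in HS_control_FMT and 156 to 566 FPKM in control. Thick ascending limb markers (6 genes) summed to 960 to 1620 FPKM in HS_control_FMT and 1160 to 1770 FPKM in control. Immediate early transcripts (10 genes) summed to 132 to 223 FPKM in HS_control_FMT and 68.6 to 214 FPKM in control. Adrenal markers (14 genes) summed to 1.23 to 1.53 FPKM in HS_control_FMT and 1.84 to 938 FPKM in control, without overlap. Their part in the result was not tested. Among members with a RefSeq promoter, 2 units stood before 7 of the 18 that were higher (38.9%) and 5 of the 16 others (31.2%). A further 11 of the 18 therefore had no such match in these 250 bases, Stip1, Dnajb2, Serpinh1 and Bag3 among them.

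**Figure D4:**
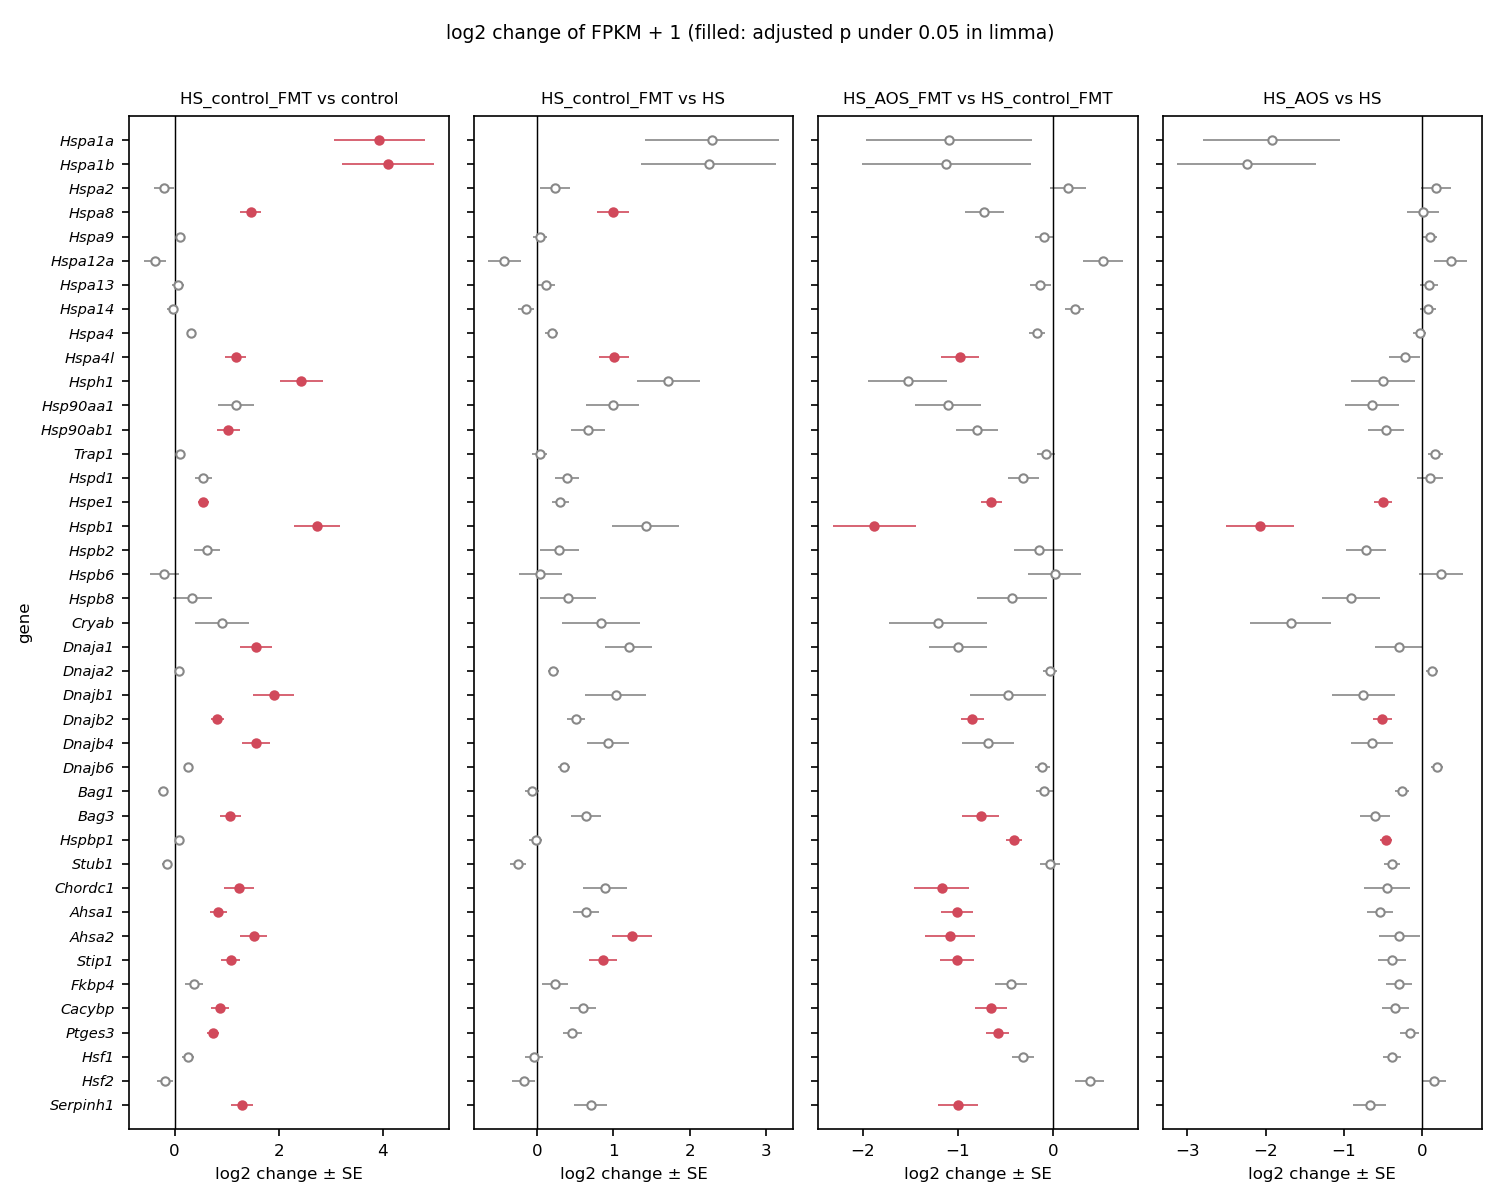
The log2 change of FPKM + 1 with its SE for the 41 tested members in 4 comparisons, filled red where the adjusted p was under 0.05 in limma. The filled points lie right of 0 in both HS_control_FMT panels (20 and 4 members) and left of 0 in the HS_AOS_FMT vs HS_control_FMT and HS_AOS vs HS panels (13 and 4).

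The 2 transplants were set against each other in HS_AOS_FMT vs HS_control_FMT, which asks whether kidneys differ by the label of the transplant. In HS_AOS_FMT 13 of 41 members were lower and 0 higher, where 1.09% of all genes were lower and 2.9% higher. The median log2 change was -0.58 over the members and 0.07 over all genes, and in 23 members the 3 HS_AOS_FMT libraries lay below the 3 HS_control_FMT libraries (7.56% of all genes). Of the HSP90 co-chaperones 6 of 7 were lower, and Fkbp4 was not called (log2 change -0.44, adjusted p = 0.152). Ahsa1, which speeds the ATP cycle of HSP90, had 61.1, 65.1 and 76.6 FPKM in HS_AOS_FMT and 134, 139 and 137 FPKM in HS_control_FMT. The gap between the groups was wider than either group's range (limma log2 change -1.01, SE 0.17, adjusted p = 0.00642), and this call, like that of Dnajb2, was made under all 28 alternatives. Ptges3 had 61.5, 69 and 76.8 FPKM in HS_AOS_FMT and 109, 110.5 and 92.9 in HS_control_FMT (adjusted p = 0.0191). Chordc1 had 23.1, 26.1 and 33.5 FPKM in HS_AOS_FMT and 64.5, 67.3 and 56 in HS_control_FMT (adjusted p = 0.0385). Cacybp had 32.8, 34.6 and 42.5 FPKM in HS_AOS_FMT and 57.1, 63.9 and 52.7 in HS_control_FMT (adjusted p = 0.048). In all 3 genes the HS_AOS_FMT libraries lay below the HS_control_FMT libraries. Stip1 (log2 change -1.01, SE 0.18, adjusted p = 0.00923) and Ahsa2 (log2 change -1.08, adjusted p = 0.0356) completed the 6.

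Outside that family the lower members in HS_AOS_FMT were Dnajb2 and Hspe1 (log2 change -0.65, SE 0.11, adjusted p = 0.00741), Hspa4l (log2 change -0.98, adjusted p = 0.0178), Hspb1 (log2 change -1.88, adjusted p = 0.0323), Hspbp1 (log2 change -0.41, adjusted p = 0.0179), Bag3 (log2 change -0.76, adjusted p = 0.0438) and Serpinh1. Serpinh1 had 32.1, 30.03 and 38.6 FPKM in HS_AOS_FMT and 77.8, 77.8 and 51.8 FPKM in HS_control_FMT, without overlap (limma adjusted p = 0.0221). The inducible pair was not called, with Hspa1b at -1.12 ± 0.89 (log2 ± SE, adjusted p = 0.53), HS_AOS_FMT 3 overlapping HS_control_FMT 3. Hsph1 just missed it (log2 change -1.53, adjusted p = 0.0541). Immediate early transcripts, 10 genes that respond to handling and stress, summed to 177 to 330 FPKM in HS_AOS_FMT, 132 to 223 FPKM in HS_control_FMT and 110 to 156 FPKM in HS. Proximal tubule markers (8 genes) summed to 5590 to 5980 FPKM in HS_AOS_FMT and 4370 to 5480 FPKM in HS_control_FMT, and podocyte markers (6 genes) to 68 to 79.1 FPKM in HS_AOS_FMT and 45.5 to 67.2 FPKM in HS_control_FMT. Adrenal markers (14 genes) summed to 8.69 to 420 FPKM in HS_AOS_FMT and 1.23 to 1.53 FPKM in HS_control_FMT. The last 3 lists did not overlap between the groups, and the part of these 4 lists in the result was not tested. The count of 13 was 2 without HS_AOS_FMT 2, 4 without HS_control_FMT 1, 5 without HS_AOS_FMT 1 or HS_control_FMT 2, and 8 without the 3 adrenal-rich libraries.

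What AOS changed in diet and STZ kidneys was asked in HS_AOS vs HS. There, 4 of 41 members were lower in HS_AOS and 0 higher, where 1.2% of all genes were lower and 1.1% higher, and the medians were -0.38 over the members and 0.01 over all genes. In 11 members the HS_AOS libraries lay below the HS libraries, against 11.1% of all genes. Hspb1 averaged 16.1 ± 2.33 FPKM in HS_AOS and 83.4 ± 50.1 FPKM in HS (SD, n = 3 each; limma log2 change -2.07, SE 0.44, adjusted p = 0.0331), and HS 1 was the lowest of the HS libraries. Hspe1 averaged 248 ± 21 FPKM in HS_AOS and 351 ± 35.5 in HS (log2 change -0.50, SE 0.11, adjusted p = 0.034). Dnajb2 had 16.9, 14.7 and 14.4 FPKM in HS_AOS and 18.5, 23.8 and 24.8 in HS, without overlap (log2 change -0.51, SE 0.12, adjusted p = 0.0435). Hspbp1 averaged 22.8 ± 1.76 FPKM in HS_AOS and 31.7 ± 1.44 in HS (log2 change -0.46, SE 0.08, adjusted p = 0.0173). Hspa8 did not share this direction, at 1507, 1428 and 1601 FPKM in HS_AOS within the HS range (log2 change 0.01, adjusted p = 0.978).

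These 4 calls changed with single libraries. The count was 12 without HS 1, 0 without HS 2, HS 3, HS_AOS 2 or HS_AOS 3, 1 without AOS 1, and 2 without AOS 2 or AOS 3. Without the 3 adrenal-rich libraries it was 0, and likewise after correction for GC content and transcript length, under which the log2 change of Hspbp1 was -0.21 (limma adjusted p = 0.202). Markers of the thick ascending limb (6 genes) summed to 519 to 813 FPKM in HS_AOS and 812 to 1180 FPKM in HS, and erythroid markers (7 genes) to 3240 to 4690 FPKM in HS_AOS and 7080 to 15500 FPKM in HS. None of the 6 limb markers was at 0, and the part of these cells in the result was not tested. Markers of the inner medulla and papilla (8 genes), where small heat shock proteins are abundant, summed to 162 to 188 FPKM in HS_AOS and 170 to 293 FPKM in HS, and proximal tubule markers (8 genes) to 5410 to 5920 FPKM in HS_AOS and 4720 to 5210 FPKM in HS. Germ cell markers (8 genes, 6 at 0 in all libraries of each group) summed to 14.6 to 22.5 FPKM in HS_AOS and 29.6 to 40.4 FPKM in HS. Of this list, which includes Hspa1l, 5 genes were tested and 0 called in HS_AOS vs HS. The part of these lists was not tested either.

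In HS_AOS_FMT vs HS 1 of 41 members was lower and 0 higher (background 0.533% lower, 0.444% higher). That member was Hspbp1, at 23.4 ± 2.12 FPKM in HS_AOS_FMT and 31.7 ± 1.44 FPKM in HS (SD, n = 3 each; limma log2 change -0.43, SE 0.08, adjusted p = 0.0366). Hspe1 and Dnajb6, next by p, gave -0.34 ± 0.11 and 0.24 ± 0.08 (log2 ± SE, limma adjusted p = 0.13 and 0.128). The Hspbp1 call ended without HS 2, HS 3, HS_AOS_FMT 2, HS_AOS_FMT 3, HS_control_FMT 1 or any AOS library, with the trends in GC content and length removed (-0.43 became -0.21), and the count was 3 without control 3. Sgta, another co-chaperone of HSP70 and HSP90, was lower in the same comparison (log2 change -0.37, adjusted p = 0.0208) and in HS_AOS vs HS (log2 change -0.30, adjusted p = 0.0298). Both comparisons share the HS libraries. Erythroid markers (7 genes) summed to 3270 to 4090 FPKM in HS_AOS_FMT and 7080 to 15500 FPKM in HS. Proximal tubule markers (8 genes) summed to 5590 to 5980 FPKM in HS_AOS_FMT and 4720 to 5210 FPKM in HS. The germ cell list was also lower and the immediate early list higher, without overlap, while the other marker lists overlapped. The part of these lists in the result was not tested.

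Diet and STZ alone, in HS vs control, changed 0 of 41 members in limma, where 0.0646% of all genes were called. An unadjusted p under 0.05 was reached by 10 members that were higher and 1 that was lower, against 3.33% and 3.29% of all genes, and the median log2 change was 0.20. Hspb1 averaged 83.4 ± 50.1 FPKM in HS and 29.2 ± 12 FPKM in control (log2 change 1.32, SE 0.44, adjusted p = 0.615), and HS 1 lay below control 2 and control 3. Serpinh1 had 28.4, 52 and 48.2 FPKM in HS and 25.9, 32.1 and 23.9 in control (log2 change 0.60, adjusted p = 0.63), and the groups overlapped. Hsf1 had 17, 21.9 and 20.2 FPKM in HS and 17.5, 15.2 and 14.6 in control (log2 change 0.30, adjusted p = 0.689), also with overlap. Erythroid markers (7 genes) summed to 7080 to 15500 FPKM in HS and 2620 to 6270 FPKM in control, with 0 of 6 tested called. Germ cell markers (8 genes) summed to 29.6 to 40.4 FPKM in HS and 54.5 to 61.9 FPKM in control. Of these, 5 were tested and 4 were lower. Neither list overlapped between the groups, and their part in these values was not tested.

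AOS alone, in AOS vs control, likewise gave 0 called members of 41 (0.0646% of all genes). An unadjusted p under 0.05 was reached by 0 higher and 2 lower members, Bag1 and Hspb8, against 1.28% and 6% of all genes. Bag1 had 166, 160.0 and 162 FPKM in AOS and 184, 171 and 219 in control, the AOS libraries all lying below (log2 change -0.22, SE 0.09, adjusted p = 0.674). Hspb8 had 5.43, 3.02 and 4.15 FPKM in AOS and 6.36, 5.03 and 16.9 in control, with overlap (log2 change -0.86, adjusted p = 0.674), and Hspe1 gave 0.16 ± 0.11 (log2 ± SE, adjusted p = 0.681). Whether AOS acted differently in HS and in control mice was tested as an interaction, which called 0 members in limma (background 0.0727%). Of the members 0 had a positive and 8 a negative difference with an unadjusted p under 0.05, against 10.9% and 4.05% of all genes. The smallest p was that of Hspe1, with a log2 difference of -0.67 ± 0.16 (SE, limma adjusted p = 0.152).

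Against control, HS_AOS had 2 members lower and 0 higher (background 1.26% lower, 1.61% higher), which were Bag1 and Hspbp1 (log2 change -0.35, SE 0.08, adjusted p = 0.0356). Neither was called without HS_AOS 2, HS_AOS 3 or control 1, and 1 member was called without AOS 1, AOS 2 or AOS 3. Without the 3 adrenal-rich libraries 1 member was called. Thick ascending limb markers (6 genes) summed to 519 to 813 FPKM in HS_AOS and 1160 to 1770 FPKM in control, and 2 were lower. Germ cell markers (8 genes, 6 at 0 in all HS_AOS libraries) summed to 14.6 to 22.5 FPKM in HS_AOS and 54.5 to 61.9 FPKM in control. Of this list 5 were tested and 4 were lower. Neither list overlapped between the groups, and 1 of 7 macrophage markers was lower. The part of these lists in the result was not tested. HS_AOS_FMT had 0 members called against control in limma (background 0.46%), and 1 member was called without HS 1 or without control 2. An unadjusted p under 0.05 was reached by 6 higher and 2 lower members (8.62% and 6.82% of all genes). Hspa1b was among the 6, at 155 ± 73 FPKM in HS_AOS_FMT and 23.9 ± 21.9 FPKM in control (SD, n = 3 each; log2 change 2.98, SE 0.89, adjusted p = 0.132), and its groups did not overlap. In each of these comparisons with control, diet and STZ differ along with AOS or the transplant.

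Other chaperones, taken as companion lists, show how far the pattern reached. The shares of all genes to read their counts against are 1.47% higher in HS_control_FMT vs control, 0.46% higher in HS_control_FMT vs HS, and 1.09% lower and 2.9% higher in HS_AOS_FMT vs HS_control_FMT. Of the chaperones of the endoplasmic reticulum, 9 of 13 were higher in HS_control_FMT vs control, 7 of 13 higher in HS_control_FMT vs HS and 10 of 13 lower in HS_AOS_FMT vs HS_control_FMT (median log2 changes 0.92, 0.88 and -0.90). Creld2, Sdf2l1 and Hyou1 had the smallest p in the last comparison. Sdf2l1, a partner of the reticulum HSP70, had 3.42, 4.78 and 5.07 FPKM in HS_AOS_FMT and 24.8, 28.1 and 20.5 FPKM in HS_control_FMT, without overlap (limma log2 change -2.23, SE 0.27, adjusted p = 0.00131). The cytosolic TRiC ring, which folds actin and tubulin, had 1 of 8 subunits, Cct7, higher in HS_control_FMT vs control (log2 change 0.33, adjusted p = 0.0233; list median 0.21), 0 called in HS_control_FMT vs HS and 1 lower in HS_AOS_FMT vs HS_control_FMT, again Cct7 (log2 change -0.36, adjusted p = 0.0179). Prefoldin, which delivers to TRiC, had 0 of 6 called in these 3 comparisons, with medians of -0.02, -0.18 and -0.07.

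Mitochondrial cofactors and proteases had 0 of 10 called in HS_control_FMT vs control (median -0.02) and in HS_control_FMT vs HS, and 1 of 10 in HS_AOS_FMT vs HS_control_FMT. That gene, Grpel2, an exchange factor of mitochondrial HSP70, was higher (log2 change 0.51, SE 0.09, adjusted p = 0.00762), the opposite direction to Hspe1. In HS_AOS vs HS the protease Yme1l1 was higher (log2 change 0.32, adjusted p = 0.0393). Other J-proteins had 1 of 10 tested called in each of the 3 comparisons, which was Dnaja4, a relative of Dnaja1 (HS_control_FMT vs control log2 change 1.45, adjusted p = 0.00196; list median -0.05). Dnaja4 had 21.8, 18.3 and 32.1 FPKM in HS_AOS_FMT, 46.1, 38.9 and 44.3 in HS_control_FMT and 14.6, 22 and 19.7 in HS. HS_control_FMT lay above both (log2 change 1.18, adjusted p = 0.02 against HS, and log2 change -0.85, adjusted p = 0.0355 for HS_AOS_FMT against HS_control_FMT). Of 16 other HSP70 and HSP90 co-chaperones, St13, Ppid and Fkbp5 were higher in HS_control_FMT vs control (list median -0.06). Fkbp5, a glucocorticoid-induced immunophilin, was higher in HS_control_FMT vs HS (log2 change 0.95, SE 0.16, adjusted p = 0.0187), and all 3 were lower in HS_AOS_FMT vs HS_control_FMT.

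**Figure D5:**
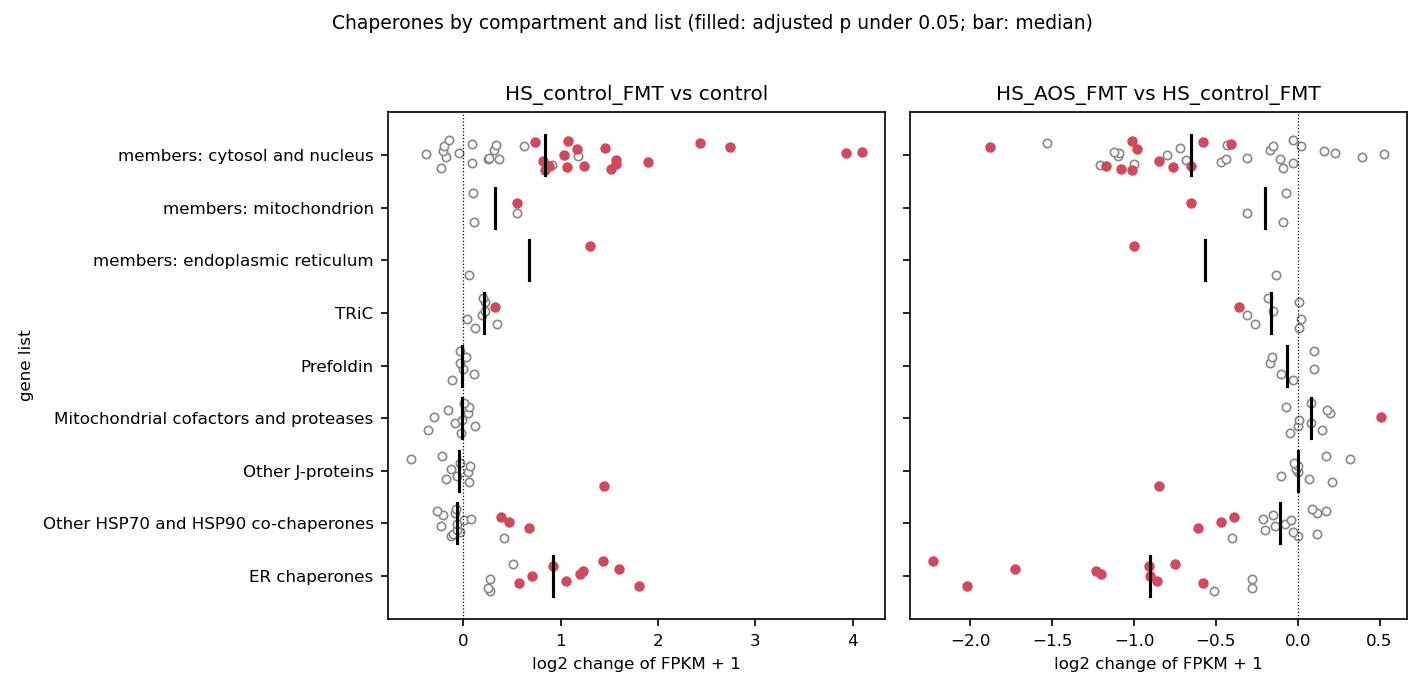
The log2 change of each tested member by compartment and of each companion list in HS_control_FMT vs control (left) and HS_AOS_FMT vs HS_control_FMT (right), red where the adjusted p was under 0.05, with a bar at the median. Cytosolic members and reticulum chaperones lie to the right in the left panel (medians 0.84 and 0.92) and to the left in the right panel (medians -0.65 and -0.90), while prefoldin and the mitochondrial cofactors have medians near 0.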

How the data were processed

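Kidney RNA was sequenced in 18 samples. Per the submitters' processing notes the tools included Bowtie 0.12.2 and the build mm10, while counting program, annotation and strandedness are not given in the sources used. The deposited table holds FPKM values made by the authors, rounded to 2 decimals, for 19545 genes. No label names the unit; times transcript length, the values had nearly equal sums (coefficient of variation 0.93%; 4.29% without the length). Low values times length fell within 0.15 of a whole multiple of a step in 40.4% to 53.5% of cases, where an even spread gives 30%, so read counts were not recovered, depth is unknown and no interval for counting error can be given. A count test had been planned for counts, and the plan's alternative for normalized values was used.

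Values were taken as log2(FPKM + 1). Genes at 1 FPKM or more in at least 3 of 18 samples were tested (12385, with 7160 left out), in 1 limma fit (3.58.1, R 4.3.3, with trend and robust) of the 6 group means, which left 12 degrees of freedom. Unless unadjusted is written, p-values are Benjamini-Hochberg adjusted over all tested genes of a comparison. The script was tested on simulated data. Shared 50-base windows and exon overlaps came from GENCODE transcripts, promoters and positions from RefSeq.

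The members and lists were chosen with earlier results of these data known. A member's value in every library is given where it passed in 1 of the 6 main comparisons (AOS vs control, HS vs control, HS_AOS_FMT vs HS_control_FMT, and each treated HS group vs HS), led its family in mean level, or was 1 of the 3 with the smallest p in a main comparison. Companion lists name at most 3 genes by the same p. Other genes are marked as chosen after their values were seen. There were 28 alternatives: 18 left out 1 library each, and 10 changed the model, filter, scaling or libraries. A group left with 2 libraries is taken to have the same spread as the rest.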

Additional observations from a re-analysis of the deposited data

How the results depend on the processing

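Single members were followed under the 28 alternatives for 30 results of the 6 main comparisons, and for the other comparisons the counts alone. Of the 840 values 0 were reversed, 630 kept their direction and side of the threshold, 205 kept the direction and lost the call and 5 gained one. The 30 include results that were not called at first, such as Hsf1 in HS vs control. For those, keeping the side means staying uncalled, so the 630 overstate how stable the calls were. All 205 losses fell among the called results. Counts of called members were within 1.5 times the reported one in 230 of 307 cases, and the others are as follows. Array weights, whose fit did not fully converge, gave 1 call for HS vs control, 27 for HS_AOS vs HS, 7 for HS_AOS_FMT vs HS, 23 for HS_control_FMT vs HS, 25 for HS_AOS_FMT vs HS_control_FMT, 13 for HS_AOS vs control, 3 for HS_AOS_FMT vs control, 8 for the interaction and 36 over the 6 groups. Fitting only the groups compared gave 0 calls for HS_AOS vs HS, HS_control_FMT vs control, HS_AOS_FMT vs HS, HS_AOS vs control and HS_control_FMT vs HS, with fewer samples in each fit. Removing the trends with GC content and length gave 0 for HS_AOS vs HS, HS_AOS_FMT vs HS and HS_AOS vs control. Leaving out control 3, HS 3 and HS_AOS_FMT 2 gave 0 for HS_AOS vs HS and HS_AOS_FMT vs HS, 8 for HS_AOS_FMT vs HS_control_FMT and 1 for HS_AOS vs control. Without the filter, with more genes tested, HS_AOS vs HS had 2 and HS_control_FMT vs HS 0, and without the trend and robust options HS_AOS_FMT vs HS had 0. Except where the construction shows it, the cause was not tested. The shares of all genes called under the alternatives, including each library left out, are not given here. It therefore cannot be said whether the counts under them are particular to the members.

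With the replicate number as a block, HS_AOS vs HS had 2 calls, HS_AOS_FMT vs HS 0 and HS_AOS vs control 1. Over 45 pairs of same-numbered libraries the correlation of deviations ran from -0.356 to 0.312, 14 were over 0.1, and 5 of 18 libraries correlated best with their own number, so the numbers were not taken to pair the samples.

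Leaving out 1 library at a time gave 0 to 0 calls for HS vs control and AOS vs control, 0 to 12 for HS_AOS vs HS, 0 to 3 for HS_AOS_FMT vs HS, 0 to 12 for HS_control_FMT vs HS, 2 to 19 for HS_AOS_FMT vs HS_control_FMT, 0 to 2 for HS_AOS vs control, 0 to 1 for HS_AOS_FMT vs control, 12 to 22 for HS_control_FMT vs control, 0 to 1 for the interaction and 11 to 28 over the 6 groups. The F test's 11 came without HS_control_FMT 1 or HS_control_FMT 2. With 3 libraries a group and unknown depth, a member that was not called is not shown to be unchanged.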
